A study of Mus musculus with 6 samples.

Results

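The neurofilament and neuronal cytoskeleton genes Nefl, Nefm, Nefh, Ina, Mapt, Map1b, Map2, Stmn2, Tubb3 and Gap43 were taken by symbol from the deposited table, where 10 of 10 were found among 18058 genes, and all 10 were among the 16762 genes tested. Total RNA of snap-frozen whole brainstem was sequenced from 3 wild type (WT) C57BL/6J mice and 3 Rag1-/- mice, each 1 month of age and naive of any cell injection. Rag1 encodes a subunit of the enzyme that cuts and rejoins antigen receptor loci, and Rag1-/- mice (for which the methods give the strain B6.129S7-Rag1tm1Mom/J) lack mature T and B cells in all tissues. The study compared the genotypes to look for brainstem transcripts that differ where T cells are missing, and the same comparison is made here for the structural genes of neurons. The values are counts per 1000000 reads of a library (CPM).

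Neurofilaments are the intermediate filaments of large axons. They are built on the light chain (Nefl), with which the medium chain (Nefm), the heavy chain (Nefh) and alpha-internexin (Ina) co-assemble, and they set the calibre of myelinated axons, so that their transcripts are abundant in large projection and motor neurons of the brainstem. Microtubules run beside them, made of tubulins such as the neuronal isotype Tubb3 and held by tau (Mapt, mainly axonal), Map2 (mainly in dendrites) and Map1b. Stmn2 binds tubulin in growing axons and Gap43 is a membrane protein of growth cones, and both are used as signs of axon growth.

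The 4 filament subunits share a rod through which they pair, and their tails separate them. The lysine-serine-proline motif, the main phosphorylation site of neurofilament tails, occurs 51 times in the 1090 residues encoded by Nefh, 4 times in the 848 of Nefm, and 0 times in the 543 of Nefl and the 501 of Ina. The repeat is shown because it sets Nefh apart from the other subunits, in the first of its 20-codon windows that hold the most copies, with the 3 copies in capitals (coding strand of a GENCODE M21 transcript on GRCm38, the assembly of mm10).
Nefh, codons 517 to 536: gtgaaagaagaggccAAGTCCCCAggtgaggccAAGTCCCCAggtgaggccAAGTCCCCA
Near-identical repeats such as these can leave short reads without a unique place inside the gene, and a value per gene says nothing of which part was read.

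The libraries were first examined against their labels. Estimated from the step between low values, depth was 34700000 to 46300000 reads in WT and 31400000 to 35000000 reads in the other group, and the 10 genes had at least 6300 reads in every library, so that counting error was at most 1.3% of a value. Rag1 was at 0.115 to 0.388 CPM in WT and at 2.60 to 4.02 CPM in mice labelled Rag1-/-, higher where it was to be lost, so they are called by that label, on which every direction below rests. Xist was over 100 CPM in WT replicates 1 and 2 (172 and 177 CPM) and at most 2.93 CPM in the other 4 libraries. WT replicate 3 thus differed from its group in this sex-linked transcript and was like the libraries labelled Rag1-/-. Sex, as far as Xist shows it, is therefore largely confounded with genotype. Neuron markers were present in every library, as expression of Snap25 (1498 to 1807 CPM) and Syp (1063 to 1152 CPM) showed. Whether fewer cells of a type or less RNA per cell lies behind a level cannot be told apart in whole tissue.

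None of the 10 genes differed between the genotypes by more than the spread between mice. In limma-trend, 0 of 10 had an adjusted p under 0.05 (0.0477% of all tested genes did) and 0 of 10 had an unadjusted p of at most 0.05 (11.6% of all tested genes did). In 0 of 10 were the 2 groups of libraries without overlap (18.4% of all tested genes). With ordinary per-gene variance 0 of all tested genes passed after adjustment, so that fit cannot show anything about the 10. The smallest exact permutation p was 0.3, for Mapt, where 3 samples against 3 allow 0.1 at the least. The median log2 fold change of the 10 genes was 0.01, beside -0.05 for all tested genes. It lay between -0.0058 (without replicate 1 labelled Rag1-/-) and 0.039 (without replicate 2 of that label) with 1 library left out, and at 0.057 under median-of-ratios rescaling, where the median of all tested genes was -0.0097. What the libraries did differ in was the neurofilament triplet, within both genotypes.

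**Figure D1:**
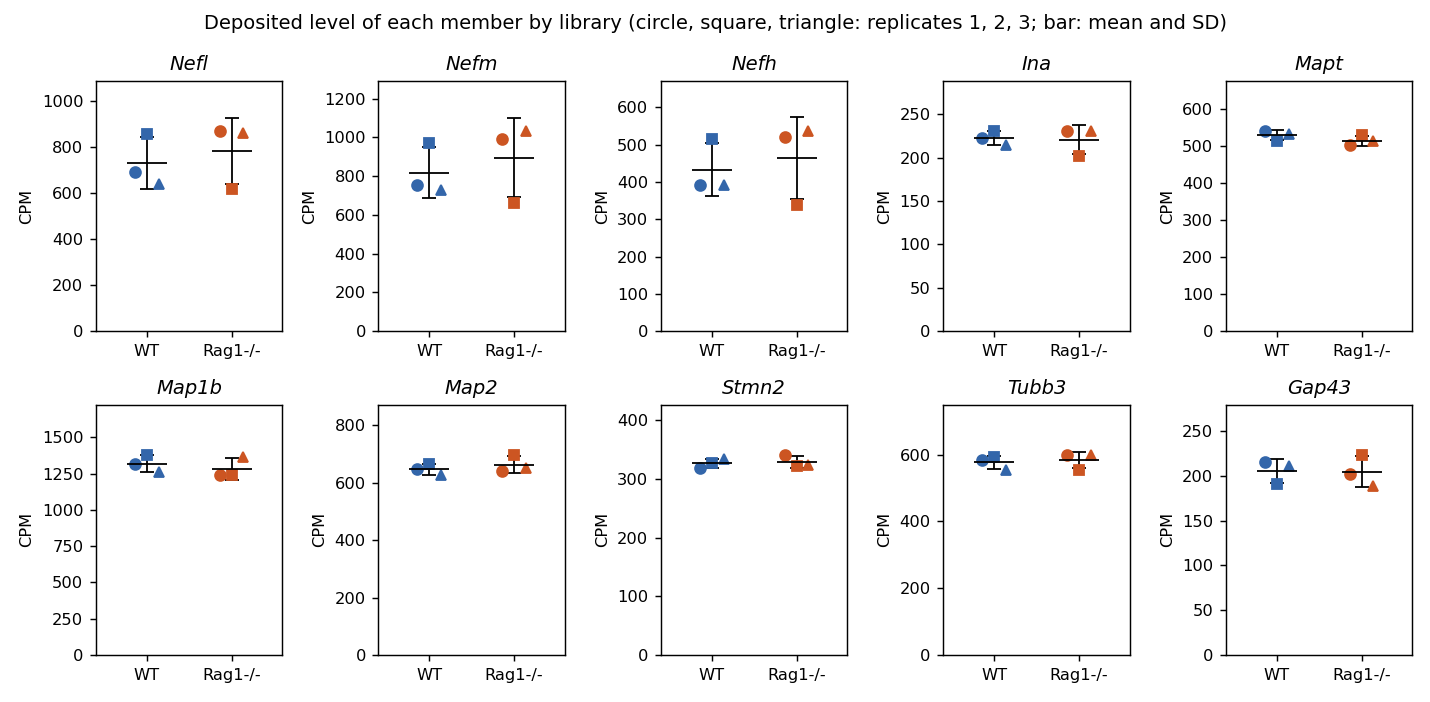
Deposited CPM (y axis, from 0) of each of the 10 genes in the 3 WT libraries (blue) and the 3 libraries labelled Rag1-/- (orange), with circles, squares and triangles for replicates 1, 2 and 3 and black bars for the mean and SD of each group. Nefl, Nefm and Nefh are spread widely within both groups, and the groups overlap for all 10 genes.

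Nefl (chromosome 14, 68083884 to 68087737, plus strand), the core subunit of the filament, had 691, 856 and 640 CPM in WT replicates 1, 2 and 3. Replicates 1, 2 and 3 labelled Rag1-/- had 868, 615 and 861 CPM. WT replicate 2 stood with replicates 1 and 3 labelled Rag1-/- at the top of the range, and replicate 2 labelled Rag1-/- was the lowest library of all. The group means were 729 ± 113 CPM (SD, n = 3) and 781 ± 144 CPM (SD, n = 3), which is a difference of 0.09 on the log2 scale ± 0.15 (standard error, SE; adjusted p = 0.825 by limma-trend). The 95% interval of the fold ran from 0.847 to 1.34.

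Nefm (chromosome 14, 68119545 to 68125004, minus strand), whose tail forms side arms of the filament, was high and low in the same libraries. It was at 754, 972 and 729 CPM in WT and at 992, 662 and 1032 CPM in those labelled Rag1-/-. Its difference on the log2 scale was 0.11 ± 0.17 (SE; adjusted p = 0.815 by limma-trend), with a fold between 0.827 and 1.42. Nefl and Nefm lie 31.8 kb apart and converge, with 0 other deposited genes between them.

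Nefh (chromosome 11, 4938756 to 4948064, minus strand), which carries the long repeat of phosphorylation sites shown above, was at 391, 515 and 392 CPM in WT and at 520, 338 and 537 CPM in mice labelled Rag1-/-. Again WT replicate 2 and replicates 1 and 3 labelled Rag1-/- were the high libraries, although the gene is on another chromosome than Nefl and Nefm. The group means were 433 ± 70.9 CPM and 465 ± 111 CPM (SD, n = 3 each), and the difference on the log2 scale was 0.09 ± 0.18 (SE; adjusted p = 0.871 by limma-trend), with a fold between 0.803 and 1.40.

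Replicate 2 labelled Rag1-/-, the lowest library of all 3 genes, moved these values when left out. Without it the log2 fold change was 0.26 for Nefl, 0.32 for Nefm and 0.30 for Nefh, and every remaining library with that label was above every WT library. In that setting 4 of the 10 genes (Tubb3 as well) did not overlap between the groups, beside 29.5% of all tested genes, and 2 of 10 (Nefm and Nefh) had an unadjusted p of at most 0.05, beside 10.3% of all tested genes. The adjusted limma-trend p was then 0.487 for Nefl and 0.476 for both Nefm and Nefh. Leaving out other libraries brought the difference near 0, for Nefl to 0.0055 without WT replicate 3, 0.0085 without replicate 1 labelled Rag1-/- and 0.014 without replicate 3 of that label, and raised it to 0.21 without WT replicate 2. With a term for Xist over 100 CPM, a fit that sets WT replicate 3 alone against the libraries labelled Rag1-/-, the log2 fold change was 0.27 for Nefl, 0.27 for Nefm and 0.21 for Nefh (adjusted limma-trend p of 0.535, 0.619 and 0.714).

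Ina (chromosome 19, 47014698 to 47024346, plus strand), the subunit that appears earlier in development than the triplet, was at 222, 230 and 215 CPM in WT and at 231, 202 and 230 CPM in mice labelled Rag1-/-. Its lowest library was again replicate 2 labelled Rag1-/-, but the highest library was only 1.14 times the lowest, against 1.41 for Nefl, 1.56 for Nefm and 1.59 for Nefh. The difference on the log2 scale was -0.01 ± 0.06 (SE; adjusted p = 0.946 by limma-trend), and the fold lay between 0.902 and 1.09.

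The spread of the triplet was large for genes of this level. The SD of log2(CPM + 0.1) within a genotype was 0.25 for Nefl, 0.30 for Nefm and 0.31 for Nefh, where the median was 0.06 over the 1789 tested genes whose mean reached 100 CPM. Of those genes, 1.68% had a larger SD than Nefl, 1.06% a larger SD than Nefm and 0.783% a larger SD than Nefh. The same share was 24.2% for Ina, 13.5% for Gap43, 33.3% for Map1b, 51.4% for Tubb3, 54.7% for Map2, 75.2% for Stmn2 and 78.9% for Mapt, so that Tubb3, Map2, Stmn2 and Mapt were no more variable than the median gene of this abundance. Estimated counting error was at most 0.97% for the triplet.

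**Figure D2:**
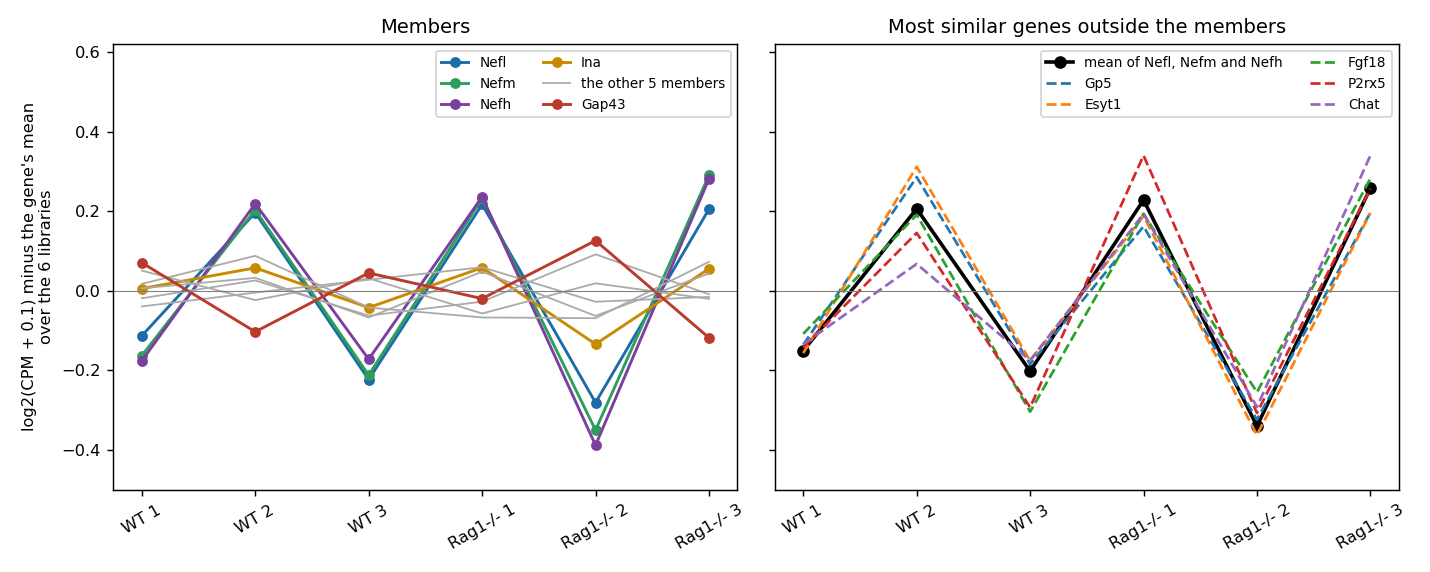
Each gene's log2(CPM + 0.1) minus its mean over the 6 libraries (y axis) in each library (x axis; the lines only join the points of a gene). On the left, Nefl, Nefm and Nefh follow one another from -0.39 to 0.29, Ina follows them with a smaller range and Gap43 goes the other way; on the right, the 5 tested genes outside the list with the most similar profile.

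Of the proteins that bind microtubules, tau (Mapt, chromosome 11, 104231436 to 104332089, plus strand) was at 541, 514 and 534 CPM in WT and at 503, 530 and 515 CPM in mice labelled Rag1-/-. The values interleaved, within a range of 1.08 times. Its difference on the log2 scale was -0.04 ± 0.04 (SE; adjusted p = 0.746 by limma-trend), with a fold between 0.909 and 1.04.

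Map1b (chromosome 13, 99421464 to 99516602, minus strand), a large microtubule-binding protein of growing axons, had the most reads of the 10 genes. It was at 1314, 1380 and 1261 CPM in WT and at 1240, 1238 and 1366 CPM in mice labelled Rag1-/-, so that both groups reached high and low values. The difference on the log2 scale was -0.04 ± 0.06 (SE; adjusted p = 0.808 by limma-trend), with a fold between 0.883 and 1.07.

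Map2 (chromosome 1, 66175329 to 66442583, plus strand), which marks dendrites, was at 646, 666 and 627 CPM in WT and at 642, 697 and 650 CPM in mice labelled Rag1-/-. Its highest library was replicate 2 labelled Rag1-/-, the library with the least Nefl, Nefm and Nefh. The difference on the log2 scale was 0.04 ± 0.05 (SE; adjusted p = 0.794 by limma-trend), with a fold between 0.949 and 1.11.

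Tubb3 (chromosome 8, 123411564 to 123422010, plus strand), the tubulin isotype used as a marker of neurons, was at 583, 594 and 554 CPM in WT and at 600, 556 and 598 CPM in mice labelled Rag1-/-. As for the triplet, WT replicate 2 and replicates 1 and 3 labelled Rag1-/- were the 3 highest libraries, but the whole range was 1.08 times. The difference on the log2 scale was 0.02 ± 0.05 (SE; adjusted p = 0.903 by limma-trend), with a fold between 0.936 and 1.10.

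Of the growth-associated genes, Stmn2 (chromosome 3, 8509527 to 8561604, plus strand) had the narrowest range of the 10 genes, at 318, 326 and 334 CPM in WT and at 341, 321 and 324 CPM in mice labelled Rag1-/-. The difference on the log2 scale was 0.01 ± 0.04 (SE; adjusted p = 0.939 by limma-trend), with a fold between 0.942 and 1.08.

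Gap43 (chromosome 16, 42248561 to 42340651, minus strand) ran opposite to the triplet. It was at 215, 191 and 212 CPM in WT and at 202, 224 and 189 CPM in mice labelled Rag1-/-, so that its highest library was replicate 2 labelled Rag1-/- and its 3 lowest were WT replicate 2 and replicates 1 and 3 with that label, the 3 libraries with the most Nefl. The difference on the log2 scale was -0.01 ± 0.07 (SE; adjusted p = 0.975 by limma-trend), with a fold between 0.890 and 1.11.

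**Figure D3:**
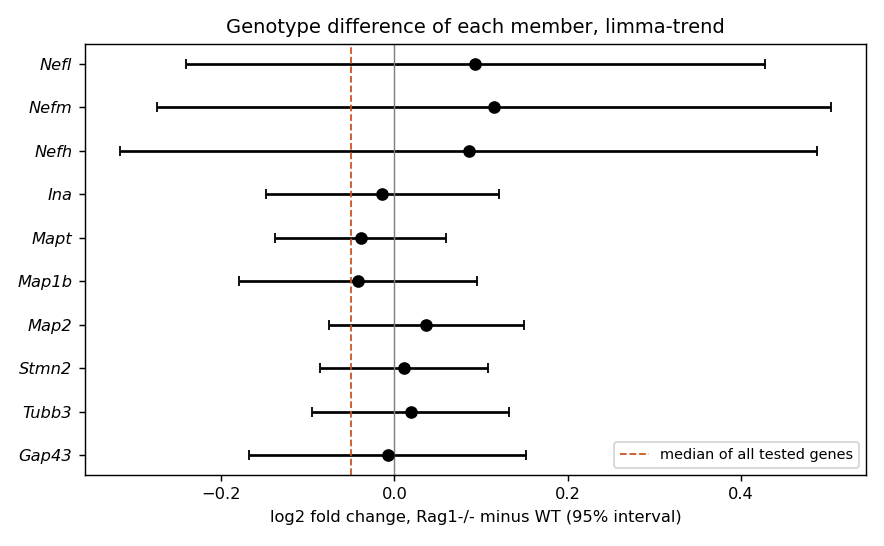
Log2 fold change of each of the 10 genes between the libraries labelled Rag1-/- and WT (x axis; points) with its 95% interval from limma-trend (bars), a solid line at 0 and a dashed line at the median of all tested genes, -0.05. All 10 intervals include 0, and those of Nefl, Nefm and Nefh are the widest.

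Per length of exon within the deposited span of a gene, Nefl had the highest level of the 10, at 377 CPM per kb (307 to 434 over the 6 libraries), followed by Tubb3 at 337 CPM per kb (322 to 348) and Nefm at 279 CPM per kb (216 to 336). The ranges of Nefl and Tubb3 overlapped, as did those of Tubb3 and Nefm. Stmn2 (172 CPM per kb) and Gap43 (158 CPM per kb) came next and overlapped each other. Nefh (112 CPM per kb), Ina (98.1 CPM per kb) and Map1b (91.3 CPM per kb) each overlapped their neighbour in this order, whereas Mapt (82.5 CPM per kb) lay below every library of Map1b, and Map2 (64.4 CPM per kb) below every library of Mapt. Map1b, which had the most reads, was thus eighth per length, over 14.2 kb of exon against 2.00 kb for Nefl. The deposited span of Nefl ends before the end of its GENCODE transcript, and reads past it may not have been counted.

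Nefl, Nefm and Nefh kept nearly the same proportions while their level moved, and Ina and peripherin did so less. With peripherin (Prph, the filament of peripheral and motor neurons, added after its values were seen), Nefl held 42.2% to 43.8% of the summed CPM per kb of the 5 filament transcripts in the 6 libraries, Nefm 30.7% to 33.1%, Nefh 12.1% to 13.3%, Ina 10% to 12.7% and Prph 0.595% to 1.08%. Ina took its largest shares in WT replicates 1 and 3 and replicate 2 labelled Rag1-/-, where the triplet was low.

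A set of 5 ratios of CPM was compared between the genotypes, since a ratio within a library does not depend on library scaling. Nefm to Nefl was 1.09, 1.14 and 1.14 in WT and 1.14, 1.08 and 1.20 in the libraries labelled Rag1-/-, a log2 difference of 0.02 (standard error 0.05). Nefh to Nefl was 0.566, 0.601 and 0.612 in WT and 0.599, 0.549 and 0.623 in the other group, a log2 difference of -0.0079 (standard error 0.06). Ina to Nefl was 0.322, 0.269 and 0.336 against 0.266, 0.328 and 0.267, a log2 difference of -0.11 (standard error 0.14) that lay between -0.21 and -0.044 with 1 library left out, at -0.21 without replicate 2 labelled Rag1-/-. In each ratio the groups overlapped.

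For the growth-associated genes against Tubb3, the log2 difference was -0.03 (standard error 0.13) for Gap43 and -0.0079 (standard error 0.05) for Stmn2. Gap43 to Tubb3 reached 0.403 in replicate 2 labelled Rag1-/- and 0.316 in replicate 3 of that label, a wider gap than between the group means. The exact two-sided permutation p ranged from 0.5 to 0.9 over the 5 ratios, and all were 0.9 after Benjamini-Hochberg adjustment over the 5.

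**Figure D4:**
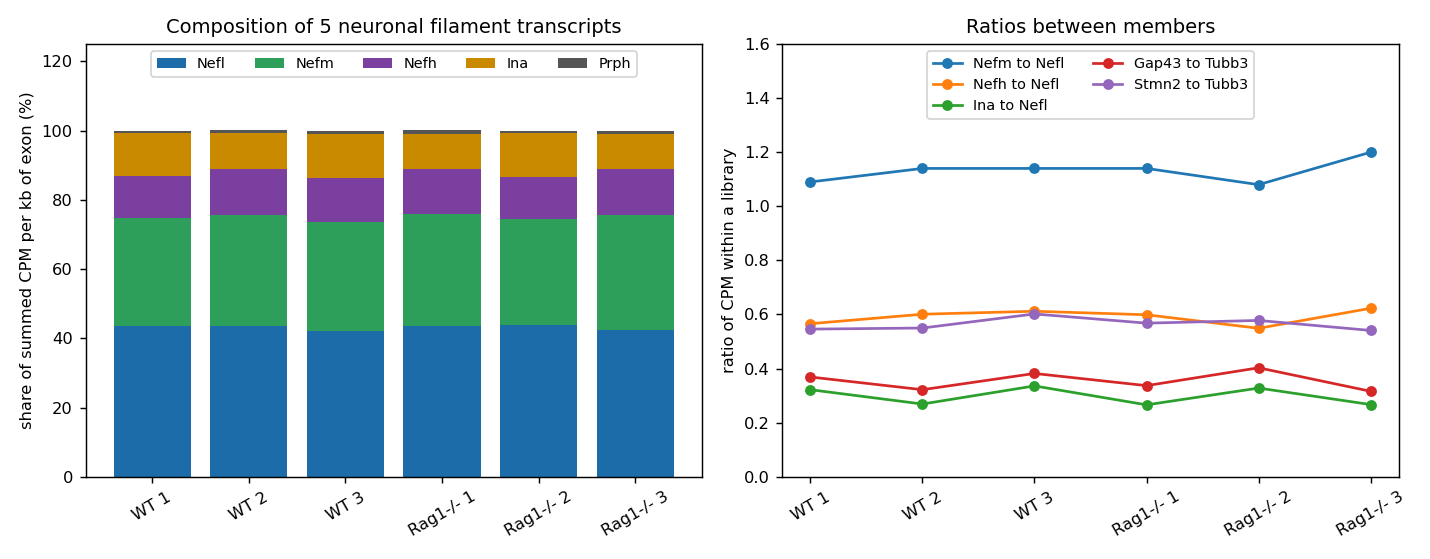
Left, share of each of 5 filament transcripts in their summed CPM per kb of exon (y axis, percent) in each library; right, the 5 ratios of CPM within a library (y axis, from 0; lines only join points of a ratio). Shares of Nefl stay between 42.2% and 43.8%, and no ratio separates WT from the libraries labelled Rag1-/-.

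The genes whose profile over the 6 libraries was closest to the mean of Nefl, Nefm and Nefh were Gp5, Esyt1, Fgf18, P2rx5 and Chat, by root mean square difference of log2(CPM + 0.1) centred per gene. This difference was 0.0506 for Gp5 and 0.0712 for Chat, where a gene with no variation would be at 0.238. These are the smallest values of a search over the 16762 tested genes on 6 libraries. How small a value such a search reaches among unrelated genes was not tested. Gp5 was at only 0.982 to 1.55 CPM, and Fgf18 and P2rx5 were at most at 5.31 CPM. Counting error is larger at such levels than for the triplet, and its part in these differences was not tested. Chat, the enzyme that makes acetylcholine and a marker of motor neurons, was at 6.66, 7.67 and 6.47 CPM in WT and at 8.38, 5.96 and 9.28 CPM in mice labelled Rag1-/-. Esyt1, which encodes a protein of contact sites between the endoplasmic reticulum and the plasma membrane, was at 22.8, 31.5 and 22.5 CPM in WT and at 28.9, 19.7 and 29.1 CPM. When the search was limited to genes whose mean reached 100 CPM, a choice made after the values were seen, Limk1, Vamp1, Kcna1 and Syt2 were among the 5 closest. Of these, Vamp1 and Syt2 encode parts of the release machinery at fast synapses, and Kcna1 is a potassium channel of axons. Vamp1 was at 710, 876 and 640 CPM in WT and at 815, 646 and 861 CPM in mice labelled Rag1-/-.

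Between libraries, the summed motor neuron markers moved with the triplet, and those of the forebrain and the cerebellum moved against it. The summed level of the motor neuron markers (5 of 6 in the table) was 40.6, 51.1 and 42.1 CPM in WT and 54.2, 38.5 and 65.6 CPM in mice labelled Rag1-/-, high in the same 3 libraries as Nefl. The transporters Slc5a7 and Slc18a3, which take up choline and load acetylcholine into vesicles, were high in the same 3 libraries, with Slc18a3 at 11.7, 15.6 and 12.9 CPM in WT and 18.2, 11.6 and 21.3 CPM in mice labelled Rag1-/-. The summed markers of the forebrain (7 of 7) ran the other way, at 7.22, 5.67 and 10.8 CPM in WT and 4.67, 9.63 and 5.93 CPM in the other group, and so did the sum of those of the cerebellum (10 of 10), at 703, 510 and 1007 CPM and at 640, 747 and 574 CPM. Single markers of these lists did not all share this order. Of the 2 most abundant forebrain markers, Dlx1 was lowest in replicate 1 labelled Rag1-/-, at 0.997 CPM, and highest in WT replicate 3, at 4.69 CPM, whereas Neurod6 was high where the triplet was high, at 1.46, 2.80 and 1.44 CPM in WT and at 1.96, 1.62 and 1.88 CPM in mice labelled Rag1-/-. Of the 2 most abundant cerebellar markers, Zic1 was lowest in WT replicate 2, at 56.6 CPM, and so was Pcp4, at 308 CPM, but Pcp4 in replicate 1 labelled Rag1-/- (419 CPM) was above WT replicate 3 (392 CPM). No marker of these 3 lists that is in the table was at the lowest deposited value in all libraries, and their part in the spread of Nefl, Nefm and Nefh was not tested.

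Markers of peripheral nerve had another order than the triplet. The Schwann cell markers (6 of 6) summed to 57.5, 37.3 and 75.5 CPM in WT and to 101, 38.1 and 75.5 CPM in mice labelled Rag1-/-, and were lowest of all in WT replicate 2, where Nefl was high. The sensory ganglion markers (6 of 8 in the table) lay between 6.10 and 7.55 CPM in WT and between 5.68 and 9.85 CPM in the other group. The general neuron markers (15 of 15) summed to 7023 to 7320 CPM in WT and 6907 to 7071 CPM in mice labelled Rag1-/-, with a median log2 fold change of -0.04 (-0.091 without WT replicate 3 and 0.0053 under median-of-ratios rescaling). Of them 1 was higher (Elavl3) and 1 lower (Slc17a7), both named after their values were seen, at an unadjusted limma-trend p up to 0.05, and 0 of 15 passed after adjustment. That is 2 of 15 where 11.6% of all tested genes were at that p, so the count is near the share of all genes.

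**Figure D5:**
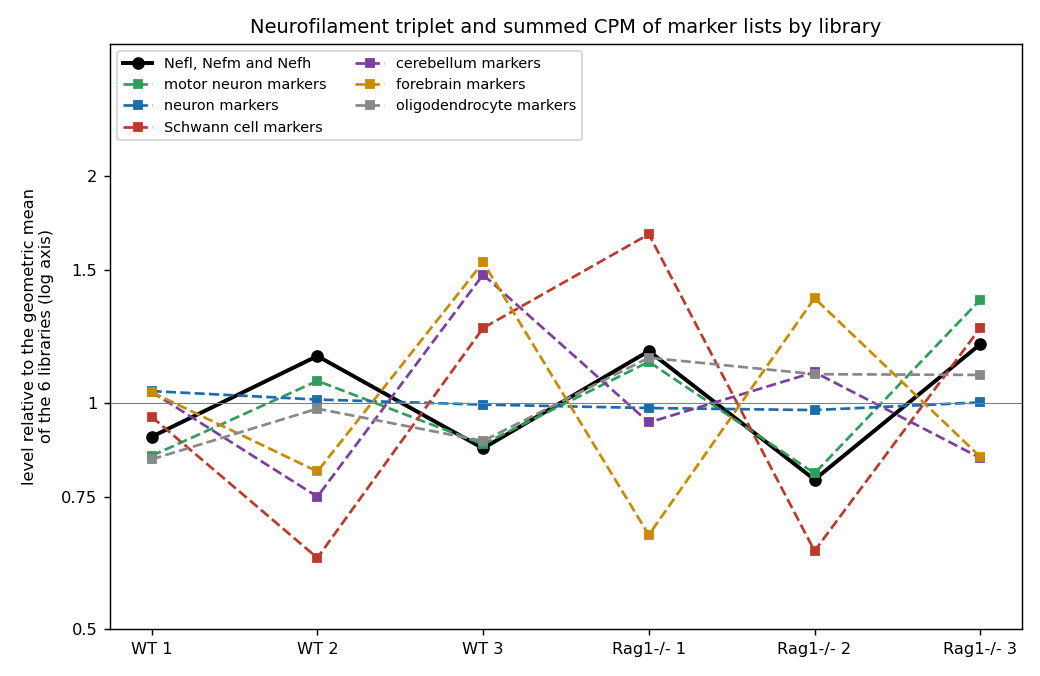
Level of the neurofilament triplet (black, geometric mean of 3 genes) and summed CPM of 6 marker lists, each relative to its geometric mean over the 6 libraries (y axis, log scale), by library (x axis; lines only join points of a list). The sum of motor neuron markers is high where the triplet is high, and the sums of forebrain and cerebellum markers are low there, although Neurod6 and Pcp4 depart from their lists. Oligodendrocyte sums do not overlap between the genotypes.

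Among the glia, the summed markers of oligodendrocytes, their precursors and astrocytes lay higher in every library labelled Rag1-/- than in every WT library. Precursor markers summed to 296 to 321 CPM in WT and 328 to 359 CPM in the other group, and astrocyte markers to 4256 to 4579 CPM and 4620 to 4773 CPM. Without the most abundant marker of these 2 lists, a choice made after the values were seen, the sums overlapped for precursors (without Gpr17, 121 to 138 CPM in WT and 118 to 131 CPM) and for astrocytes (without Slc1a2, 2621 to 2945 CPM and 2825 to 3048 CPM). Oligodendrocyte markers summed to 19190 to 22410 CPM in WT and to 24850 to 26200 CPM in mice labelled Rag1-/-, and 8 of 10 were higher at an unadjusted p of at most 0.05 (2.27% of all tested genes were higher and 9.29% lower at that p), with 0 of 10 after adjustment in limma-trend (0 of 10 also with ordinary per-gene variance) and a median log2 fold change of 0.25. Oligodendrocyte precursor markers had 2 of 5 higher at that p, astrocyte markers 1 of 8 higher, microglia markers 1 of 9 lower and endothelial markers 0 of 6, counts of 0 to 2 genes beside the 11.6% of all tested genes in either direction, with median log2 fold changes of 0.05, 0.05, -0.05 and -0.05. With 1 library left out these medians lay between -0.037 and 0.11 for precursors, 0.022 and 0.078 for astrocytes, -0.077 and -0.027 for microglia and -0.11 and 0.0068 for endothelial cells (0.19 with the Xist term). Since CPM values share 1 total, a higher share of myelin transcripts leaves less for others, and its part in the values of the 10 genes was not tested.

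The wider set of cytoskeletal genes was examined in 9 lists with 109 genes, all of them tested. After adjustment 0 of 109 passed in limma-trend, and 11 of 109 (10.1%) reached an unadjusted p of 0.05 or less in limma-trend, 4 higher and 7 lower, near the 11.6% of all tested genes. Their median log2 fold change was -0.03. Groups did not overlap for 5 of 109 that were higher and 18 of 109 that were lower, beside 3.98% and 14.4% of all tested genes. The genes named next are among those with the smallest unadjusted p in each list, at most 3 per list, and all 11 had an adjusted p between 0.334 and 0.429. All 11 kept their direction under median-of-ratios rescaling and under quantile normalization, but only 7 met the unadjusted threshold under the first (Csnk1d, Add2 and Ank2 were among those that did not) and 8 under the other (Tuba1a and Csnk1d were among those that did not).

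Of the intermediate filament partners, 1 of 8 was lower at that p, and their median log2 fold change was -0.10. With 1 library left out this median lay between -0.15 (without replicate 3 labelled Rag1-/-) and -0.054 (without replicate 2 of that label). Of the other tubulins, 1 of 11 was at that p: Tuba1a, the main alpha-tubulin of neurons, at 1364 to 1412 CPM in WT and 1464 to 1538 CPM in mice labelled Rag1-/- (log2 fold change 0.11, standard error 0.05). Of the other microtubule-associated proteins, 2 of 18 were, in opposite directions. Dclk1, a doublecortin-like kinase that binds microtubules, was at 255 to 278 CPM in WT and 222 to 248 CPM in the other group, and Mapre1, which tracks growing microtubule ends, was at 71.9 to 78.1 CPM and 80.2 to 81.6 CPM. Of the stathmins and collapsin response mediators, relatives and partners of Stmn2, 0 of 8 were, and their median log2 fold change was -0.0074.

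Of the growth cone membrane proteins, to which Gap43 belongs by function, 1 of 7 was at that p. Marcksl1, a substrate of protein kinase C at the membrane, was at 118, 120 and 135 CPM in WT and at 144, 155 and 139 CPM in mice labelled Rag1-/- (log2 fold change 0.23, standard error 0.06). Of the genes of the axon injury response, 0 of 7 were, with a median log2 fold change of -0.03. This median was -0.16 when the mean had to reach 1 CPM, -0.10 without replicate 1 labelled Rag1-/- and 0.057 under quantile normalization.

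Of the kinases and phosphatases of tau and neurofilaments, 2 of 18 were lower at that p, among them the casein kinase Csnk1d (124 to 127 CPM in WT and 112 to 120 CPM in mice labelled Rag1-/-). Of the axonal transport motors, 1 of 19 was, the dynein light intermediate chain Dync1li1 (57.7 to 60.0 CPM and 50.9 to 54.6 CPM). Of these motors 7 of 19 were lower in every library labelled Rag1-/- than in every WT library and 0 of 19 higher. Over all tested genes these shares were 14.4% and 3.98%. The count lower was 11 of 19 without replicate 3 labelled Rag1-/-, beside 21.4% of all tested genes, and 7 or 8 of 19 without any other library. Under median-of-ratios rescaling 1 of 19 was lower and 2 of 19 higher, beside 7.73% and 7.97% of all tested genes. Of the genes of the axonal membrane skeleton, 3 of 13 were: the adducin Add2 and the ankyrin Ank2 were lower and neurofascin, Nfasc, was higher (706 to 733 CPM and 742 to 837 CPM). Nfasc is made by oligodendrocytes as well as neurons. The differences of these lists were between -0.36 and 0.55 on the log2 scale for single genes, and their medians between -0.10 and 0.02. The medians of 4 of the 9 lists turned sign in an alternative other than rescaling. Of the 9, 6 turned under median-of-ratios rescaling or quantile normalization, which raised the median of all tested genes by 0.041 and 0.053. The intermediate filament partners and the axonal transport motors turned in neither case. Over all lists and alternatives the medians lay between -0.16 and 0.088. For the stathmins and collapsin response mediators the median was -0.066 without replicate 2 labelled Rag1-/- and 0.034 under median-of-ratios rescaling.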

How the data were processed

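Reads of 3 WT and 3 Rag1-/- brainstem libraries were demultiplexed with bcl2fastq, aligned to mm10 with STAR 2.5.3a and counted on RefSeq genes in Partek Flow. The authors deposited CPM per gene and library, with 0.0001 as the lowest value. Whether genes were filtered is not stated. Low values were whole multiples of 1 read (within 0.1 read) in only 84.7% to 86.5% of cases, so no count test was run.

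The 16762 of 18058 genes averaging 0.1 CPM or more entered the test as log2(CPM + 0.1) across all genes with limma-trend (limma 3.58.1, R 4.3.3), two-sided, with Benjamini-Hochberg adjustment, after the study's own choice of limma-trend. The test was checked on simulated data. Single values were tested with exact two-sided permutation tests (scipy 1.17.1). Groups came from the sample titles, and each library is 1 mouse. Exon length is the union of GENCODE M21 basic protein-coding exons within the deposited span, whose end is given as 1 base before the deposited stop. Coding sequence is that of the longest complete reading frame of a gene.

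The 10 genes and the gene lists were chosen with earlier results of these data known. All 10 are named, with at most 3 genes per pathway list at an unadjusted p of at most 0.05, the 2 most abundant genes of a marker list where given, and the 5 most similar profiles. Some items that this rule selects are not reported here. Alternatives were other pseudocounts, filters, scalings and variance models, a replicate block, a term for Xist over 100 CPM, and leaving out each library.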

Additional observations from a re-analysis of the deposited data

How the results depend on the processing

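In 16 alternatives, 0 of the 160 log2 fold changes of the 10 genes had an adjusted p under 0.05 (the lowest was 0.476). The count of the 10 with an unadjusted p of at most 0.05 was 0 in all but 1 alternative, and from 0 to 2 with a library left out (2 of 10 in the fit where 10.3% of all tested genes were at that p). The 2 were Nefm and Nefh without replicate 2 labelled Rag1-/-, the library with the least of both, at 0.32 and 0.30 on the log2 scale (adjusted p = 0.476 by limma-trend for both). Without it the groups did not overlap for 4 of the 10 genes, Nefl, Nefm, Nefh and Tubb3, and for 29.5% of all tested genes (from 0 to 4 over the libraries left out, with 1 each without WT replicate 2 and without replicate 3 labelled Rag1-/-, where 31.0% and 29.4% of all tested genes did not overlap).

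The direction turned in 21 of the 160, among them 1 for Nefm and 2 for Nefh. With median-of-ratios rescaling Ina was 0.028, Mapt 0.0026 and Gap43 0.034, with quantile normalization Ina was 0.019 and Gap43 0.025, and with the Xist term Ina was 0.035, Map1b 0.021 and Stmn2 -0.022. That last fit sets WT replicate 3 alone against the libraries labelled Rag1-/-. With a library left out, the log2 fold change ranged from -0.0013 to 0.32 for Nefm, -0.033 to 0.30 for Nefh, -0.046 to 0.050 for Ina, -0.016 to 0.027 for Stmn2, -0.010 to 0.055 for Tubb3 and -0.073 to 0.049 for Gap43. The Xist term also moved Nefl to 0.27, Nefm to 0.27 and Nefh to 0.21. The log2 difference of ratios ranged from -0.21 to -0.044 for Ina to Nefl, -0.016 to 0.061 for Nefm to Nefl, -0.048 to 0.044 for Nefh to Nefl, -0.13 to 0.047 for Gap43 to Tubb3 and -0.033 to 0.037 for Stmn2 to Tubb3.

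Over all tested genes, 8 had an adjusted p under 0.05. This was 4 with pseudocount 0.01, 4 with no filter, 4 when the mean had to reach 1 CPM, 5 under quantile normalization, 2 without the trend, 0 with ordinary per-gene variance (where 1772 had an unadjusted p of at most 0.05), 134 with the Xist term, and 2 to 24 with a library left out, the 24 without WT replicate 3. An unadjusted p of at most 0.05 was reached by 1938 genes, 19.6% of them higher, and by 1115 to 2028 with a library left out, the 1115 without replicate 1 labelled Rag1-/-. The share that was higher became 51.8% with median-of-ratios rescaling and 57.2% with quantile normalization. Why these counts moved was not tested. Same-numbered libraries share only a number: their deviations from the group means correlated at 0.0926, -0.22 and -0.0183 for replicates 1, 2 and 3, and 1 of 6 libraries correlated best with its own number. Under the replicate block 3 genes passed after adjustment, 0 of them among the 10.

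With 3 mice per group the intervals of Nefl, Nefm and Nefh leave folds from about 0.80 to 1.42 undecided. Estimated counting error was at most 0.97% of their values, and differences between mice, sexes, dissections and library preparations cannot be told apart.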
